A study of Capra hircus with 13 samples.

Results

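The kinesins and the proteins of the centromere and kinetochore were followed by their mRNA levels in goat (*Capra hircus*) oocytes and early embryos. The 70 genes were all those of the 27161 names in the 5 tables that begin with KIF followed by a digit or C, or with CENP, or that are *NDC80*, *NUF2*, *SPC24*, *SPC25*, *BUB1*, *BUB1B*, *BUB3*, *MAD1L1* or *MAD2L1*. They comprised 40 kinesin genes, 20 CENP genes, the 4 genes of the NDC80 complex, 5 genes of the spindle assembly checkpoint, and *KIF1BP*, which encodes a kinesin-binding protein and entered by its name alone. All 70 had a symbol in the RefSeq gene table of assembly ARS1.2. The 3 untreated tables listed 67 of them in common. Among the rest, *KIF1A* was listed for MII oocytes and injected embryos only, and *KIF25* and *KIF26A* for injected embryos only.

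Smart-seq2 libraries of polyA RNA were made from 13 samples without genetic modification. The untreated groups were MII oocytes, matured *in vitro* and arrested at metaphase of the second meiotic division (3 libraries), and 4-cell and 8-cell stage embryos produced by *in vitro* fertilization (IVF), with 3 libraries each. The injected groups were 8-cell stage embryos that received either a universal negative control siRNA (NC, 2 libraries, whose titles read WT) or a mixture of siRNAs against *YTHDF2* (knockdown, 2 libraries) in the zygote cytoplasm at 8 h after IVF. Injected embryos were collected at 72 h after IVF and pooled for each library. The oocytes came from ovaries of slaughtered goats whose breed is not given in the sources used here. The untreated libraries were taken from earlier studies of the same authors without a note of which stage came from which, so that stage and study cannot be told apart. YTHDF2 is a reader of N6-methyladenosine that shortens the life of the mRNAs it binds. No source names separate animals or cultures behind the replicates, so that the p-values measure the spread between these libraries only, which may be technical. A pool of fewer embryos that express a gene and less of its RNA per embryo cannot be told apart in such libraries.

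Centromeres are marked by nucleosomes that hold the histone H3 variant CENPA. The constitutive centromere-associated network (CCAN) sits on them and carries the outer kinetochore, where the NDC80 complex holds the end of a microtubule and the checkpoint proteins delay anaphase until every kinetochore is attached. Kinesins are motors that use ATP to walk along microtubules or to take them apart. Some build the spindle and the midzone of dividing cells, others carry vesicles and organelles or serve cilia. An MII oocyte holds an assembled meiotic spindle, and the cleavage divisions of the embryo begin with mRNAs and proteins that the oocyte stored, before the embryonic genome becomes active.

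The knockdown groups differ by the injected siRNAs, so their antisense strands are shown, 5′ to 3′, with the seed (bases 2 to 8) in capitals, as designed by the study.
s28148: uUGCUAGCaauaucagcccaa
s28147: uGGUCUAUaguauucaugcca
The strands have different seeds. *YTHDF2* itself stood at 112 and 159 FPKM (fragments per kilobase of gene model, scaled to library size) in the NC libraries and at 8.07 and 4.47 FPKM in the knockdown libraries. It fell by 4.25 on the log2 scale (SE 0.43, limma adjusted p = 0.000367, n = 2 against 2), in the direction of the labels. In the untreated 8-cell libraries, whose tables were normalized apart, it held 10.8, 16.7 and 12.5 FPKM, far below the NC values. Sites of these seeds in the kinesin and centromere mRNAs were not searched, because no goat transcript sequence was used here.

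Some libraries stood apart before any comparison. The 9 untreated libraries held 22397878 to 28357544 fragments on the genes shared by their tables, and the depth of the injected libraries is unknown. Among the untreated libraries, replicates correlated at 0.946 to 0.977 for MII and 0.964 to 0.978 for 4-cell embryos, but at 0.854 to 0.966 for 8-cell embryos, where replicate 1 was the one apart. In that library *KIF22*, *KIF3C*, *KIF7*, *KIFC1*, *KIFC3* and *MAD1L1* exceeded 3 times the value in both other 8-cell libraries, as did 12.7% of all 9090 genes tested. In MII replicate 2 *SPC24* and *SPC25* exceeded 3 times both other MII libraries, as did 4.18% of all genes tested. Of 10 oocyte marker genes 8 were listed, and their summed level was 1443 to 2411 FPKM in MII oocytes, 2081 to 3312 in 4-cell, 2482 to 2831 in 8-cell, 485 to 725 in NC and 993 to 1819 in knockdown embryos. Of 10 cumulus and granulosa cell markers 9 were listed, with sums of 42.0 to 60.3, 53.6 to 66.4, 87.9 to 136, 37.0 to 40.8 and 69.7 to 72.2 FPKM in the same order, led by *STAR*, *HAS2* and *TNFAIP6*, while *FSHR*, *AMH* and *INHBA* stayed below 1 FPKM in every library. Sperm markers, of which 4 of 8 were listed for untreated and 7 for injected samples, summed to at most 1.001 FPKM in the untreated, 12.96 to 21.99 FPKM in the NC and 5.48 to 27.1 FPKM in the knockdown libraries. The part of these transcripts in the results was not tested.

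A few genes held most of the signal. Over the 67 genes listed throughout, the summed level was 4184 ± 44.5 FPKM in MII oocytes, 5289 ± 198 FPKM in 4-cell and 4524 ± 401 FPKM in 8-cell embryos (mean ± SD, n = 3, as for all untreated means here). In the same order it was 1.47% ± 0.0459, 1.28% ± 0.0930 and 1.18% ± 0.0732 of the summed FPKM of the library. The NC and knockdown libraries gave 3555 ± 167 and 4301 ± 428 FPKM (n = 2, as for all injected means here). *KIF20B*, a motor of cytokinesis, had the highest mean of them in each untreated group, at 821, 754 and 798 FPKM in MII oocytes, 795, 703 and 650.2 FPKM in 4-cell and 608, 774 and 683 FPKM in 8-cell embryos. The libraries of the 3 stages overlapped. At the 4-cell stage *KIF20B* and *CENPU* lay within their spread of each other (716 ± 73.5 and 679 ± 109 FPKM), and *CENPU* was the higher one in replicate 3. In MII oocytes *NDC80* (421 ± 17.1 FPKM), *CENPF* (339.7 ± 29.1 FPKM) and *MAD2L1* (307 ± 33.1 FPKM) came next, with *CENPF* and *MAD2L1* within their spread of each other. Ranks shifted most at the top for *CENPU*, which stood at place 10 in MII oocytes, 2 in 4-cell and 4 in 8-cell embryos. At the other end, 14, 16 and 13 of the 67 genes had a mean under 1 FPKM in MII, 4-cell and 8-cell samples.

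**Figure D1:**
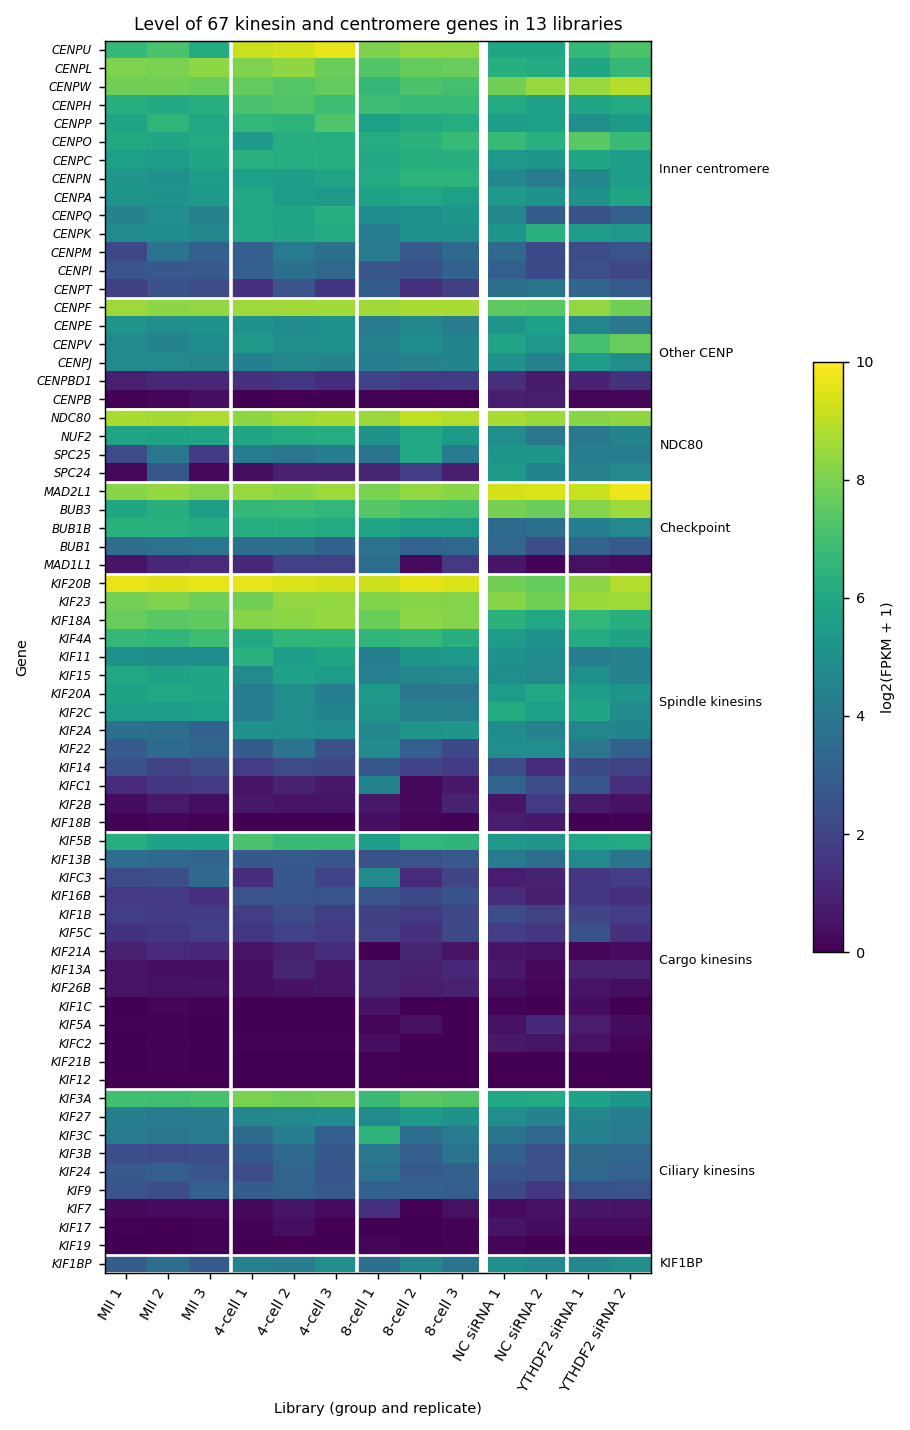
Levels of the 67 genes listed in every table (rows, grouped by role and sorted within a role by mean level in the untreated libraries) in the 13 libraries (columns), colored by log2(FPKM + 1). *CENPU* is brightest in the 4-cell columns, *KIF20B* and *NDC80* are bright in all untreated columns, and the wide white line separates tables that were normalized apart.

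Among the inner centromere genes *CENPL*, *CENPW*, *CENPU* and *CENPH* led in MII oocytes, and among cargo kinesins *KIF5B*, the heavy chain of conventional kinesin, led in all 5 groups. *KIF3A*, the motor of intraflagellar transport in cilia, led the ciliary kinesins with 127 ± 7.90 FPKM in MII oocytes and 241 ± 14.04 FPKM at the 4-cell stage. Several paralogs were near silent beside an abundant relative. *KIF18B* stayed at or under 0.326 FPKM in the untreated libraries, where *KIF18A* held 171 to 343 FPKM. *KIF2B* stayed under 1 FPKM there, with *KIF2A* and *KIF2C* at 7.55 to 49.6 FPKM. *KIF12* was listed at 0 in all MII and 4-cell libraries and had 0.0371 FPKM in 1 of the 8-cell libraries. *KIF19* was listed at 0 in the 3 4-cell libraries and *KIF1A* in the 3 MII libraries. Reads were counted where they mapped uniquely, so the split of reads between close relatives such as *KIF5A*, *KIF5B* and *KIF5C* is uncertain.

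The first question was how these mRNAs changed from the MII oocyte to the 4-cell stage. Of the 67 genes 53 had a mean of at least 1 FPKM and were tested, and the 14 left out were *CENPB*, *KIF12*, *KIF13A*, *KIF17*, *KIF18B*, *KIF19*, *KIF1C*, *KIF21A*, *KIF21B*, *KIF26B*, *KIF2B*, *KIF5A*, *KIF7* and *KIFC2*. A change was called by the rule of the study, an unadjusted p under 0.05 and more than 2-fold, here from limma on log2(FPKM + 1), a scale that understates the change of low genes. At the 4-cell stage 8 of the 53 rose (15.1%, against 16.7% of all 9090 genes tested) and 2 fell (3.77%, against 6.06%). The genes that rose were *CENPU*, *KIF2A*, *SPC25*, *CENPQ*, *KIF1BP*, *CENPK*, *KIF11* and *KIF16B*, and those that fell were *KIF20A* and *KIF2C*. With an adjusted p in the rule 7 were higher (15.4% of all genes) and 2 lower (5.09%), without *SPC25*. At any size of change, an adjusted p under 0.05 was met by 13 higher genes (24.7% of all genes) and 3 lower ones (6.42%). The median log2 fold change of the 53 was 0.24, and that of all genes tested was 0.29.

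Directions depend in part on how the libraries are scaled. Against MII oocytes the median gene was 0.29 higher at the 4-cell and 0.37 higher at the 8-cell stage on the log2 scale, while 8-cell against 4-cell embryos and knockdown against NC embryos gave 0.07 and 0.01. Among all called genes 26.6% were lower at the 4-cell stage with FPKM as deposited, against 51.7% to 65.2% under 4 other scalings of the libraries, and 29.1% against 50.5% to 58.5% at the 8-cell stage. The median of the 53 turned negative under each of these scalings, to -0.29 to -0.03 at the 4-cell and -0.35 to -0.16 at the 8-cell stage. That of all genes tested also moved down, to -0.18 to 0.04 and -0.09 to 0.06. No kinesin or centromere gene called in a stage comparison changed sign under any of them. Relative to the median gene, the 8 that rose at the 4-cell stage lay between 0.73 (*KIF16B*) and 2.44 (*CENPU*), and *KIF20A* and *KIF2C* at -1.71 and -1.35. At the 8-cell stage the 6 that rose lay between 0.74 (*CENPN*) and 1.63 (*SPC25*), and *KIF15* and *KIF20A* at -1.68 and -1.84. The 4 scalings were median-ratio rescaling, equal summed FPKM, quantile normalization and limma voom on the recovered fragments. Called at the 4-cell stage under all 4 were *CENPU*, *KIF20A* and *KIF2C*, and *KIF2A* under 3 of the 4. *KIF13B* and *KIF15* were called lower in addition under 2 of the 4, equal summed FPKM and voom, where 12.7% and 16.3% of all genes were lower.

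**Figure D2:**
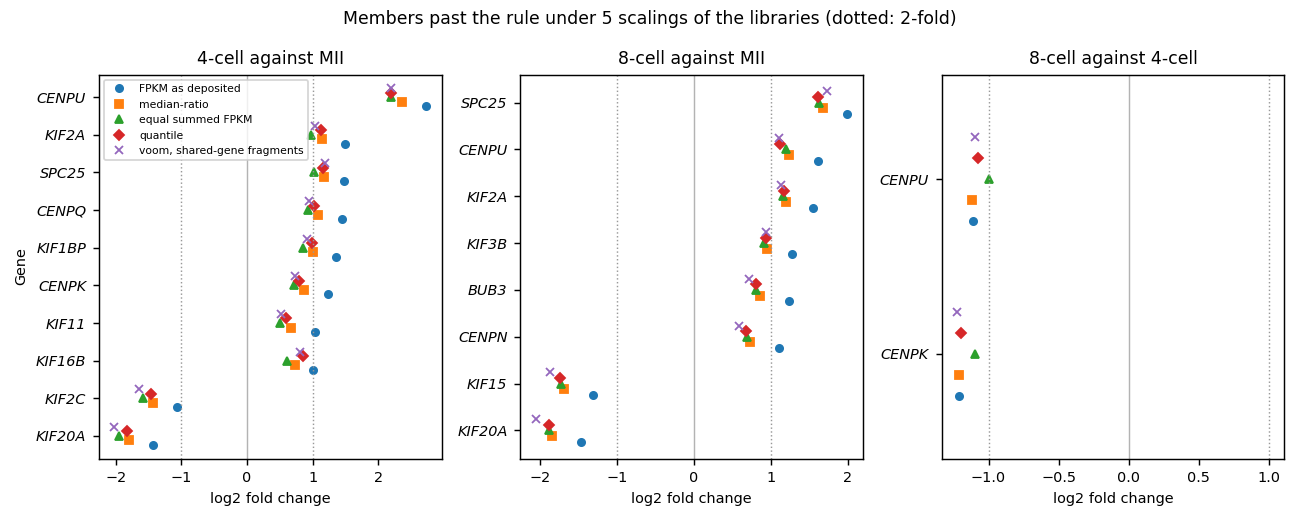
Log2 fold changes (horizontal axis) of the genes past the rule in each stage comparison (rows), with 1 symbol for FPKM as deposited and for each of 4 other scalings of the libraries; dotted lines mark 2-fold. For *CENPU* at the 4-cell stage all symbols lie beyond 2-fold, while *CENPK*, *KIF11* and *KIF16B* lie inside it under the 4 other scalings.

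From MII oocytes to the 8-cell stage 6 of the 53 rose (11.3%, against 19.8% of all genes tested) and 2 fell (3.77%, against 8.14%). *SPC25*, *CENPU*, *KIF2A*, *KIF3B*, *BUB3* and *CENPN* rose, and *KIF20A* and *KIF15* fell. All 8 passed the adjusted p as well, against 18.5% and 7.58% of all genes higher and lower by that rule. At any size, an adjusted p under 0.05 was met by 13 higher genes (27.3% of all genes) and 8 lower ones (10.0%). The median of the 53 was 0.17, beside 0.37 for all genes. This comparison shares its MII libraries with the previous one, so the values are given side by side and the lists are not compared. Under all 4 other scalings *CENPU*, *KIF2A*, *SPC25*, *KIF15* and *KIF20A* were called, *BUB3*, *CENPN* and *KIF3B* were not under any, and *BUB1B*, *CENPE*, *CENPW*, *KIF13B* and *KIF2C* were called lower in addition. Of all genes 12.7% to 17.4% were lower and 11.7% to 12.5% higher under these scalings. Without 8-cell replicate 1 the genes called lower were 4 in place of 2, *KIF2C* (-1.22) and *KIFC1* (-1.03) being added, and those called higher were 8 in place of 6, *KIF1BP* (1.08) and *KIF27* (1.06) being added, where 20.0% of all genes were higher and 10.8% lower.

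Between the 4-cell and the 8-cell stage none of the 53 rose and 2 fell, *CENPK* and *CENPU* (3.77%, against 4.28% of all genes, with 4.55% of all genes higher). At an unadjusted p under 0.05 limma gave 2 higher genes, *BUB3* and *CENPN*, both under 2-fold, and 15 lower ones, or 3.77% and 28.3% of the 53, against 10.8% and 13.5% of all genes. Voom on the fragments also called 0 higher, against 6.08% of all genes. Both genes that fell passed with an adjusted p, a rule that called 2.29% of all genes higher and 3.17% lower. At any size, 0 higher genes (3.06% of all genes) and 4 lower ones (5.24%) met an adjusted p under 0.05. Without 8-cell replicate 1 neither *CENPK* nor *CENPU* was called, at -0.92 and -0.99, where 4.12% of all genes were lower. Without 8-cell replicate 2 *KIF3C* was called higher, at 1.74, where 8.97% of all genes were higher. *CENPQ* and *KIF11* were close below the rule, at -0.98 (SE 0.20) and -0.98 (SE 0.30), and were called with some libraries left out. With *CENPK* and *CENPU* they made up the 4 lower genes without 4-cell replicate 2 or 8-cell replicate 3, where 4.74% and 4.67% of all genes were lower. Without 4-cell replicate 1 the 4 were *CENPK*, *CENPU*, *CENPQ* and *KIF15* (-1.02), and without 4-cell replicate 3 the 2 were *CENPK* and *KIF11*. Of all called genes 48.4% were lower here, and 35.9% with equal summed FPKM, where *CENPU* was not called.

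In the centromere and kinetochore, *CENPA* was 0.14 (SE 0.20), *CENPC* -0.09 (SE 0.16), *CENPE* -0.63 (SE 0.18) and *CENPF* 0.10 (SE 0.13) on the log2 scale. *NDC80* was 0.24 (SE 0.18), *NUF2* -0.55 (SE 0.22), *SPC24* 0.49 (SE 0.63) and *SPC25* 0.51 (SE 0.63). The checkpoint genes gave 0.03 (SE 0.24) for *BUB1*, -0.56 (SE 0.16) for *BUB1B*, 0.46 (SE 0.20) for *BUB3*, 0.17 (SE 0.69) for *MAD1L1* and -0.23 (SE 0.16) for *MAD2L1*. Of the motors, *KIF2C* was 0.11 (SE 0.26), *KIF4A* 0.11 (SE 0.19), *KIF18A* -0.25 (SE 0.17), *KIF20A* -0.05 (SE 0.37), *KIF23* -0.05 (SE 0.18), *KIFC1* 1.08 (SE 0.91) and *KIF5B* -0.64 (SE 0.28). None of these 20 passed the rule.

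**Figure D3:**
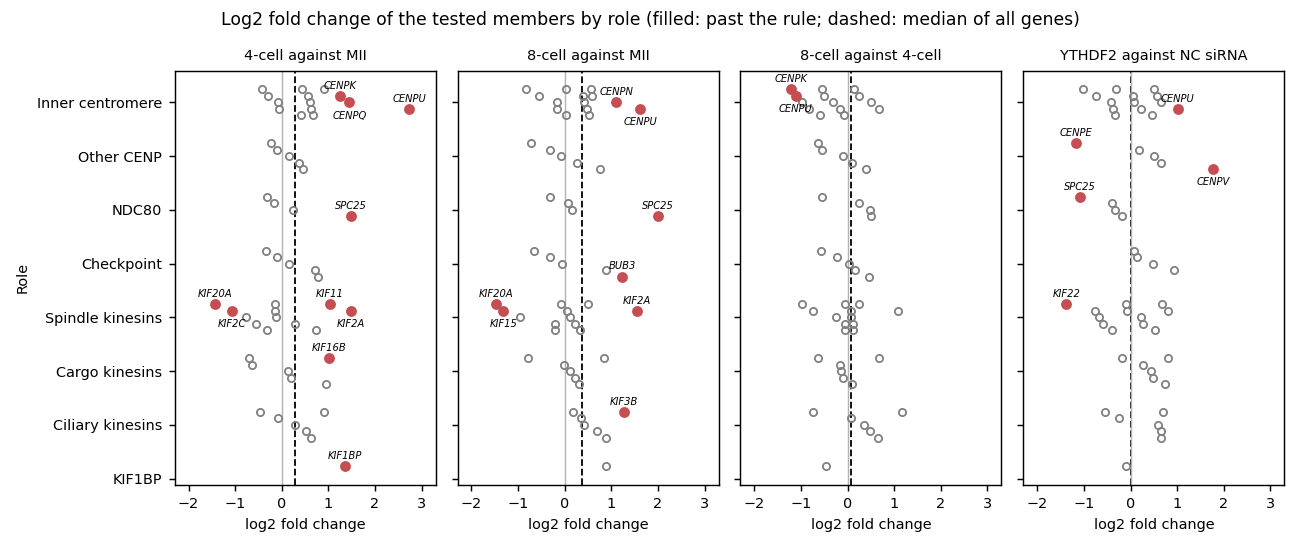
Log2 fold change (horizontal axis) of each tested gene, with roles as rows, in the 3 stage comparisons and in knockdown against NC embryos; filled circles are past the rule and the dashed line is the median of all genes tested. *CENPU* lies farthest right at the 4-cell stage, at 2.73, and *KIF20A* farthest left in both comparisons with MII oocytes.

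Of the inner centromere genes, the 14 of the CENPA chromatin and the CCAN, all were tested. At the 4-cell stage 3 rose (21.4%, against 16.7% of all genes) and none fell (against 6.06%), and their median was 0.59, beside 0.29. In 8-cell embryos 2 rose (14.3%, against 19.8%) and none fell (against 8.14%), with a median of 0.40, beside 0.37. From the 4-cell to the 8-cell stage 2 fell (14.3%, against 4.28%) and none rose (against 4.55%), with a median of -0.40, beside 0.07. *CENPU*, a CCAN subunit that with CENPO, CENPP, CENPQ and CENPR forms the CENPO complex and docks the kinase PLK1, stood at 103, 142 and 69.4 FPKM in MII oocytes, 586, 651 and 799 FPKM in 4-cell and 261, 343 and 335 FPKM in 8-cell embryos. Every library of each stage was apart from those of the other stages, with the 4-cell libraries highest. It was 6.63-fold higher at the 4-cell stage (log2 fold change 2.73, SE 0.26, limma adjusted p = 0.000158), 3.07-fold higher at the 8-cell stage (log2 fold change 1.62, SE 0.26, limma adjusted p = 0.00125) and 2.16-fold lower from the 4-cell to the 8-cell stage (log2 fold change -1.11, SE 0.26, limma adjusted p = 0.0302). The last of these was lost without 4-cell replicate 3 (-0.99) or 8-cell replicate 1 (-0.99).

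*CENPQ*, of the same complex, held 20.6, 28.7 and 19.8 FPKM in MII oocytes, 60.3, 58.6 and 73.4 FPKM in 4-cell and 27.97, 31.3 and 37.01 FPKM in 8-cell embryos. It rose at the 4-cell stage (log2 fold change 1.45, SE 0.20, limma adjusted p = 0.000901), where the libraries did not overlap, and was 0.47 (SE 0.20) at the 8-cell stage, where they did. Under other scalings the 4-cell value was 0.93 to 1.09 and passed the rule in 2 of 4. Of its other subunits, *ITGB3BP*, which encodes CENPR and is no KIF or CENP name, also rose at the 4-cell stage (log2 fold change 1.90, SE 0.24, limma adjusted p = 0.000547), while *CENPP* and *CENPO* did not pass the rule. *CENPP* was 0.67 (SE 0.26) and *CENPO* -0.08 (SE 0.25) at the 4-cell stage, and -0.16 (SE 0.26) and 0.41 (SE 0.25) at the 8-cell stage. The ratio of *CENPU* to *CENPO*, which does not depend on how a library is scaled, was 1.55, 2.44 and 1.01 in the MII, 14.2, 8.75 and 10.9 in the 4-cell and 3.63, 4.04 and 3.20 in the 8-cell libraries. The ratio of *CENPU* to *CENPP* was 1.82, 1.55 and 1.10, then 5.96, 7.22 and 5.29, then 5.23, 5.25 and 4.64. Both ratios were lower in every MII library than in every untreated embryo library, but not than in the injected ones, given with the knockdown. These pairs were chosen after their values were seen.

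*CENPK*, which with CENPH, CENPI and CENPM links CENPC to the rest of the network, held 27.5, 28.3 and 22.9 FPKM in MII oocytes, 64.3, 56.2 and 69.6 FPKM in 4-cell and 17.6, 34.1 and 31.5 FPKM in 8-cell embryos. Only the 4-cell libraries stood apart. It rose at the 4-cell stage (log2 fold change 1.24, SE 0.25, limma adjusted p = 0.00509) and fell from there to the 8-cell stage (log2 fold change -1.21, SE 0.25, limma adjusted p = 0.0210), and against MII oocytes the 8-cell value was 0.03 (SE 0.25). The rise lay at 0.72 to 0.88 under other scalings and passed in none. Its partner *CENPH* was 0.90 (SE 0.16) at the 4-cell stage, under 2-fold, with libraries apart, *CENPI* 0.63 (SE 0.25) and *CENPM* 0.56 (SE 0.47).

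*CENPN*, which binds the CENPA nucleosome together with CENPL, held 35.7, 31.8 and 44.3 FPKM in MII oocytes, 49.5, 46.5 and 55.8 FPKM in 4-cell and 68.02, 88.1 and 87.1 FPKM in 8-cell embryos. The 3 stages did not overlap and the 8-cell libraries were highest. The 8-cell rise (log2 fold change 1.10, SE 0.18, limma adjusted p = 0.00159) was just past the rule and was 0.999 without MII replicate 2, where it was lost. Its partner *CENPL* had the opposite sign, from 276 ± 30.95 FPKM in MII oocytes to 188 ± 26.9 FPKM in 8-cell embryos (log2 fold change -0.56, SE 0.19). Under other scalings it was -1.09 to -0.94 and was called lower in 2 of 4, quantile normalization and voom. *CENPA* itself was 0.42 (SE 0.20) at the 4-cell and 0.56 (SE 0.20) at the 8-cell stage, with 34.9, 34.4 and 40.7 FPKM in MII, 64.8, 44.9 and 41.1 in 4-cell and 53.1, 60.7 and 50.2 in 8-cell libraries. *CENPC*, the scaffold of the network, was 0.61 (SE 0.16) and 0.53 (SE 0.16), also under 2-fold with MII and untreated embryo libraries apart. *CENPW*, a histone-fold partner of CENPT, was -0.29 (SE 0.17) and -0.84 (SE 0.17), and *CENPT* -0.41 (SE 0.45) and -0.16 (SE 0.45).

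With FPKM as deposited none of the 5 other CENP genes tested was called at the 4-cell or the 8-cell stage. Of all genes 16.7% and 19.8% were higher and 6.06% and 8.14% lower. *CENPF*, a large protein of the outer kinetochore and nuclear envelope, held 339.7 ± 29.1 FPKM in MII oocytes, 379.7 ± 12.5 FPKM in 4-cell and 406 ± 26.6 FPKM in 8-cell embryos, with fold changes of 0.16 (SE 0.13) and 0.26 (SE 0.13) against MII oocytes on the log2 scale. *CENPE*, itself a kinesin that moves chromosomes to the spindle equator, held 35.1, 29.8 and 33.4 FPKM in MII oocytes, 33.1, 27.2 and 31.6 FPKM in 4-cell and 16.9, 23.8 and 18.1 FPKM in 8-cell embryos. The untreated 8-cell libraries lay below all other untreated ones. Its values were -0.10 (SE 0.18) at the 4-cell and -0.72 (SE 0.18) at the 8-cell stage, the latter with limma adjusted p = 0.0129 but under 2-fold. Under other scalings the 8-cell value was -1.28 to -1.09 and was called lower in 4 of 4. *CENPB*, which binds a motif in centromeric repeats, stayed at or under 0.333 FPKM in all 9 libraries and was not tested.

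In the NDC80 complex levels of the 4 partners were far apart. *NDC80* held 424, 402 and 435 FPKM in MII oocytes, 315, 384 and 427 FPKM in 4-cell and 358, 529 and 454 FPKM in 8-cell embryos, and its fold changes against MII oocytes were -0.17 (SE 0.18) and 0.07 (SE 0.18). *NUF2*, its direct partner, was 0.24 (SE 0.22) and -0.32 (SE 0.22) with 34.2 to 71.5 FPKM over the 9 libraries. *SPC25*, on the side facing the centromere, held 3.82, 14.1 and 2.45 FPKM in MII oocytes, 17.7, 14.3 and 18.4 FPKM in 4-cell and 13.9, 62.2 and 15.98 FPKM in 8-cell embryos. MII replicate 2 and 8-cell replicate 2 were the high ones, and MII and 8-cell libraries overlapped.

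*SPC25* was called higher at the 4-cell stage by the unadjusted rule (log2 fold change 1.49, SE 0.63, limma adjusted p = 0.101) and by both rules in 8-cell embryos (log2 fold change 1.995, SE 0.63, limma adjusted p = 0.0322). With a library left out the 4-cell call was kept without MII replicate 2 (2.12). It was lost without MII replicate 1 (1.29) or MII replicate 3 (1.05), and likewise with any of the 4-cell libraries omitted, replicate 1 (1.45), 2 (1.59) or 3 (1.42). Under the other scalings the 4-cell value was 1.02 to 1.19 and passed in none of 4, and with no filter on low values it was lost as well. The 8-cell call stayed past the unadjusted rule with any 1 library omitted, at 1.33 without 8-cell replicate 2 and 2.63 without MII replicate 2. With the limma adjusted p it was lost without MII replicate 1 (0.103), MII replicate 3 (0.115) or 8-cell replicate 2 (0.0812), with no filter on low values (0.0713), in the fit of the 2 stages alone (0.0790) and under every other scaling (0.0675 to 0.0737), and the replicate block is given with the dependence on the processing. *SPC24*, its partner, held 0.158, 5.73 and 0.190 FPKM in MII oocytes, 0.281, 0.853 and 0.986 FPKM in 4-cell and 1.04, 2.55 and 0.799 FPKM in 8-cell embryos, from 4 to 150 fragments a library. Its changes were -0.33 (SE 0.63) and 0.16 (SE 0.63).

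*BUB3* was the checkpoint gene past the rule in a stage comparison. It held 58.1, 77.02 and 45.9 FPKM in MII oocytes, 99.8, 107 and 97.6 FPKM in 4-cell and 163, 135 and 124 FPKM in 8-cell embryos. The 3 stages did not overlap and were ordered MII, 4-cell, 8-cell. *BUB3*, the adaptor that brings BUB1 and BUBR1 to the kinetochore, rose 2.34-fold at the 8-cell stage (log2 fold change 1.23, SE 0.20, limma adjusted p = 0.00153), after 0.77 (SE 0.20) at the 4-cell stage. The 8-cell value was 0.72 to 0.85 under other scalings, where it was not called in any of 4. *BUB1B*, which encodes BUBR1, an inhibitor of the anaphase-promoting complex, held 83.5, 79.97 and 70.96 FPKM in MII oocytes, 71.5, 78.4 and 69.2 FPKM in 4-cell and 57.5, 46.1 and 44.7 FPKM in 8-cell embryos. Its 8-cell libraries lay below all other untreated ones, at -0.66 (SE 0.16), short of 2-fold with FPKM as deposited and called lower in 4 of 4 other scalings. The ratio of *BUB3* to *BUB1B* was 0.697, 0.963 and 0.647 in the MII, 1.40, 1.36 and 1.41 in the 4-cell and 2.83, 2.94 and 2.77 in the 8-cell libraries, a pair chosen after its values were seen, and no 2 stages overlapped.

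*BUB1*, the checkpoint kinase, was -0.34 (SE 0.24) at the 4-cell and -0.31 (SE 0.24) at the 8-cell stage, with 7.56 to 14.01 FPKM over the 9 libraries. *MAD2L1*, which encodes MAD2, the inhibitor of CDC20, was 0.16 (SE 0.16) and -0.07 (SE 0.16) with 252 to 366 FPKM. *MAD1L1*, the anchor of MAD2 at the kinetochore, held 0.472, 1.17 and 1.35 FPKM in MII, 1.25, 2.93 and 2.79 FPKM in 4-cell and 11.2, 0.238 and 2.13 FPKM in 8-cell libraries, with 8-cell replicate 1 above all others. Its changes were 0.72 (SE 0.69) and 0.88 (SE 0.69). With a library left out it was called higher at the 8-cell stage without 8-cell replicate 2 (1.66).

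**Figure D4:**
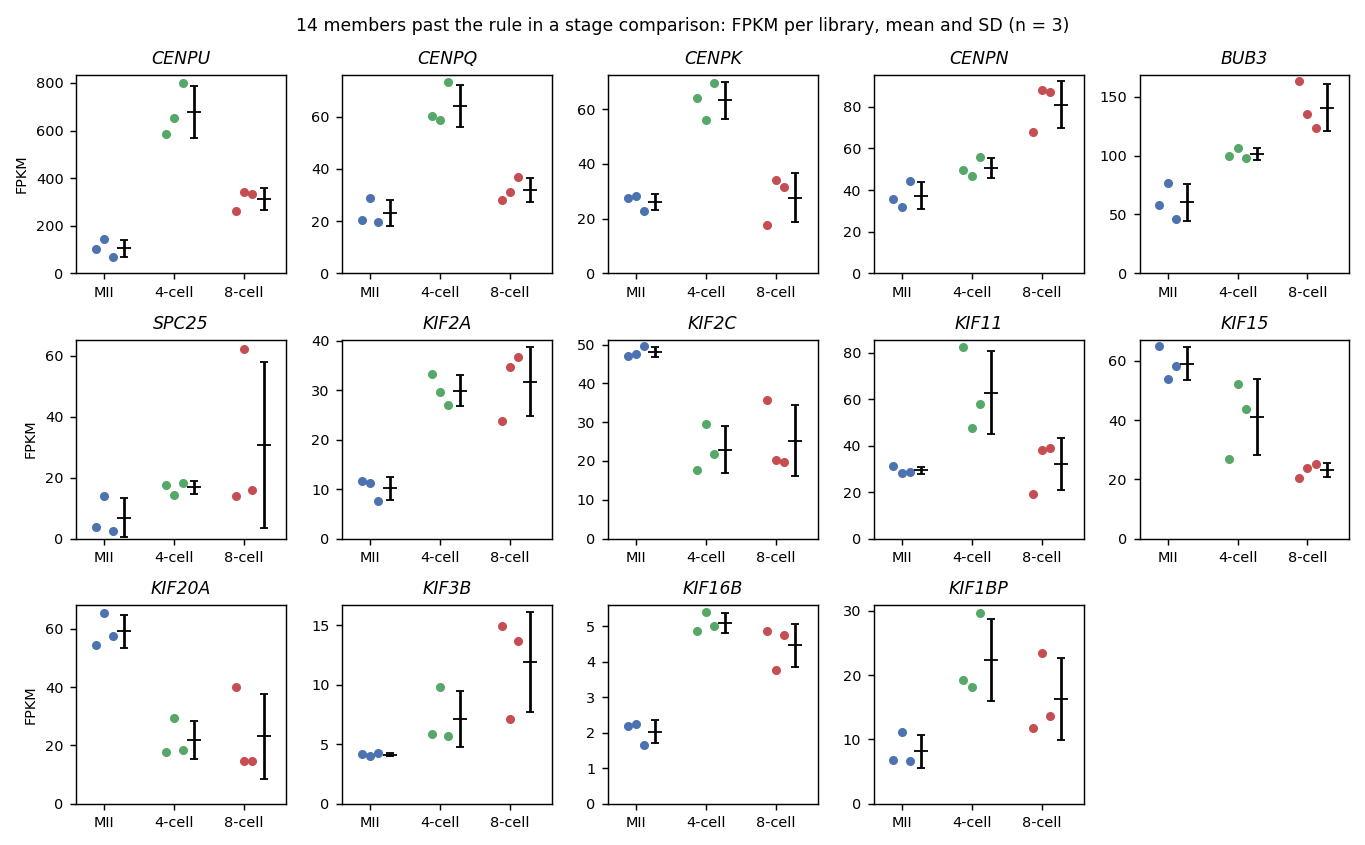
FPKM (vertical axes, each from 0) of the 14 genes past the rule in at least 1 stage comparison, with 1 point per library for MII oocytes, 4-cell and 8-cell embryos, and the mean with SD (n = 3) beside the points. *CENPU*, *CENPQ* and *CENPK* are highest in the 4-cell libraries, *BUB3* and *CENPN* in the 8-cell libraries, and *KIF20A*, *KIF15* and *KIF2C* in the MII libraries.

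Against MII oocytes, with FPKM as deposited, the genes that fell were spindle kinesins. At the 4-cell stage 2 of the 12 tested rose (16.7%, the share of all genes being 16.7%) and 2 fell (16.7%, against 6.06%), with a median of -0.15. Of the same 12, in 8-cell embryos 1 rose (8.33%, against 19.8%) and 2 fell (16.7%, against 8.14%), with a median of -0.01. *KIF20A*, the motor that brings the chromosomal passenger complex to the spindle midzone, held 54.4, 65.3 and 57.4 FPKM in MII oocytes, 17.7, 29.4 and 18.5 FPKM in 4-cell and 39.96, 14.7 and 14.6 FPKM in 8-cell embryos. All MII libraries lay above all untreated embryo libraries, and 8-cell replicate 1 was the highest of the untreated embryos. It fell 2.69-fold at the 4-cell stage (log2 fold change -1.43, SE 0.37, limma adjusted p = 0.0164) and 2.78-fold at the 8-cell stage (log2 fold change -1.47, SE 0.37, limma adjusted p = 0.0117), and without 8-cell replicate 1 the latter was -1.94.

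Of the kinesin-13 motors, which take microtubules apart from their ends, *KIF2A* and *KIF2C* changed in opposite directions. *KIF2A*, which acts mostly at spindle poles, held 11.7, 11.3 and 7.55 FPKM in MII oocytes, 33.2, 29.7 and 26.99 FPKM in 4-cell and 23.8, 34.8 and 36.7 FPKM in 8-cell embryos, and rose 2.80-fold (log2 fold change 1.49, SE 0.23, limma adjusted p = 0.00160) and 2.93-fold (log2 fold change 1.55, SE 0.23, limma adjusted p = 0.000938). *KIF2C*, also known as MCAK, which acts mostly at centromeres, held 47.1, 47.5 and 49.6 FPKM in MII oocytes, 17.6, 29.5 and 21.7 FPKM in 4-cell and 35.8, 20.3 and 19.7 FPKM in 8-cell embryos. It fell at the 4-cell stage (log2 fold change -1.06, SE 0.26, limma adjusted p = 0.0136), a call lost without 4-cell replicate 1 (-0.90), and was -0.95 (SE 0.26) at the 8-cell stage, short of 2-fold with FPKM as deposited and past it under all 4 other scalings. For both genes the MII libraries stood apart from all untreated embryo libraries. The ratio of *KIF2A* to *KIF2C*, a pair chosen after its values were seen, is free of the scaling of the libraries. It was 0.248, 0.238 and 0.152 in the MII, 1.89, 1.004 and 1.24 in the 4-cell and 0.667, 1.71 and 1.86 in the 8-cell libraries. In the injected 8-cell libraries it was 0.396 and 0.398 (NC) and 0.390 and 0.840 (knockdown), mostly below the untreated embryo libraries.

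*KIF11* and *KIF15* both push spindle poles apart, the former as a tetramer that crosslinks antiparallel microtubules. *KIF11* held 31.3, 28.2 and 28.5 FPKM in MII oocytes, 82.5, 47.7 and 58.1 FPKM in 4-cell and 19.02, 38.2 and 39.1 FPKM in 8-cell embryos. It rose at the 4-cell stage (log2 fold change 1.04, SE 0.30, limma adjusted p = 0.0256), a call lost without 4-cell replicate 1 (0.82) and under every other scaling (0.51 to 0.67), and was 0.06 (SE 0.30) at the 8-cell stage. *KIF15* held 64.9, 53.9 and 58.1 FPKM in MII oocytes, 26.9, 52.03 and 43.7 FPKM in 4-cell and 20.3, 23.95 and 25.1 FPKM in 8-cell embryos. The 3 stages did not overlap and were ordered from MII down. It fell 2.49-fold at the 8-cell stage (log2 fold change -1.31, SE 0.24, limma adjusted p = 0.00247) and was -0.56 (SE 0.24) at the 4-cell stage. Under other scalings the 4-cell value was -1.13 to -0.93 and was called lower in 2 of 4. The ratio of *KIF11* to *KIF15*, again chosen after its values were seen, was 0.482 to 0.525 in the MII, 0.916 to 3.06 in the 4-cell and 0.937 to 1.60 in the 8-cell libraries. In the injected 8-cell libraries it was 1.12 and 1.08 (NC) and 0.542 and 0.985 (knockdown).

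The other spindle kinesins did not pass the rule. *KIF18A*, which limits chromosome oscillation at metaphase, was 0.73 (SE 0.17) at the 4-cell and 0.49 (SE 0.17) at the 8-cell stage, with MII libraries apart below. *KIF4A*, a chromokinesin of the midzone, was -0.32 (SE 0.19) and -0.22 (SE 0.19) with 64.4 to 118 FPKM over the 9 libraries. *KIF23*, the motor of centralspindlin, was 0.27 (SE 0.18) and 0.22 (SE 0.18), and *KIF20B* -0.15 (SE 0.15) and -0.21 (SE 0.15). *KIFC1*, a minus-end motor that focuses spindle poles, held 1.28, 1.96 and 2.21 FPKM in MII, 0.462, 0.922 and 0.600 FPKM in 4-cell and 21.7, 0.170 and 0.603 FPKM in 8-cell libraries. In 8-cell replicate 1 it had 1644 fragments, against 13 and 51 in the other two, and its changes were -0.76 (SE 0.91) and 0.32 (SE 0.91).

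Of 6 cargo kinesins tested 1 rose at the 4-cell (16.7%, as of all genes) and none at the 8-cell stage (against 19.8%), and none fell with FPKM as deposited. *KIF13B*, a carrier of vesicles, was -0.65 (SE 0.19) at the 4-cell and -0.79 (SE 0.19) at the 8-cell stage, and under other scalings -1.28 to -0.91 and -1.43 to -1.13, called lower in 2 and 4 of 4. *KIF16B*, which carries early endosomes, held 2.20, 2.23 and 1.65 FPKM in MII oocytes, 4.86, 5.41 and 4.99 FPKM in 4-cell and 4.87, 3.77 and 4.76 FPKM in 8-cell embryos, with MII libraries apart. Its 4-cell rise (log2 fold change 1.01, SE 0.21, limma adjusted p = 0.00574) was at the edge of the rule and was lost without MII replicate 3 (0.92) or 4-cell replicate 2 (0.98). *KIF5B* held 75.4, 53.6 and 55.3 FPKM in MII oocytes, 143, 104 and 110.0 FPKM in 4-cell and 48.3, 98.7 and 89.7 FPKM in 8-cell embryos. It was 0.95 (SE 0.28) at the 4-cell stage, where the libraries stood apart, and 0.31 (SE 0.28) at the 8-cell stage, where they overlapped, and among the fits with a library left out passed the 4-cell rule without MII replicate 1 (1.10) or 4-cell replicate 2 (1.03).

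Of 6 ciliary and centriolar kinesins tested none rose at the 4-cell (against 16.7%) and 1 rose at the 8-cell stage (16.7%, against 19.8%), and none fell. *KIF3B*, the partner of KIF3A in kinesin-2, held 4.15, 4.02 and 4.24 FPKM in MII oocytes, 5.82, 9.82 and 5.70 FPKM in 4-cell and 14.96, 7.16 and 13.7 FPKM in 8-cell embryos. All embryo libraries lay above all MII libraries, and the rise was called at the 8-cell stage (log2 fold change 1.27, SE 0.30, limma adjusted p = 0.00933). *KIF3A* was 0.91 (SE 0.17) at the 4-cell stage, with libraries apart but under 2-fold, and 0.17 (SE 0.17) at the 8-cell stage. *KIF3C* held 88.9, 11.2 and 17.1 FPKM in the 8-cell libraries, where replicate 1 was the high one. *KIF1BP* held 6.76, 11.2 and 6.61 FPKM in MII oocytes, 19.2, 18.2 and 29.7 FPKM in 4-cell and 11.7, 23.5 and 13.6 FPKM in 8-cell embryos, and rose at the 4-cell stage (log2 fold change 1.35, SE 0.31, limma adjusted p = 0.0105). Under other scalings that value was 0.85 to 1.01 and passed the rule in 1 of 4. At the 8-cell stage it was 0.89 (SE 0.31), short of 2-fold, and past the rule without MII replicate 2 or 8-cell replicate 1 (1.11 and 1.08).

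The knockdown comparison asked which of these mRNAs differ when YTHDF2 is reduced at the 8-cell stage. Of the 70 genes 52 were tested. The 18 left out were the 14 above together with *KIF1A*, *KIF25*, *KIF26A* and *MAD1L1*. By the unadjusted rule 2 rose, *CENPV* and *CENPU* (3.85%, against 9.48% of all 11004 genes tested), and 3 fell, *KIF22*, *CENPE* and *SPC25* (5.77%, against 15.3%). With the adjusted p only *CENPV* remained, where 2.06% of all genes were higher and 5.92% lower. The median of the 52 was 0.16, beside 0.01 for all genes. Without knockdown replicate 1, which left a single knockdown library, *BUB1B* (1.13), *CENPN* (1.14) and *KIF20B* (1.09) were also more than 2-fold higher and *KIF2C* (-1.17) and *KIFC1* (-1.40) more than 2-fold lower. *CENPV* was more than 2-fold higher without NC replicate 1 (2.043), NC replicate 2 (1.496) or knockdown replicate 2 (1.462). Each of these fits also left a single library in a group.

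*CENPV*, a protein of the centromere that also associates with microtubules, held 57.05 and 38.8 FPKM in the NC and 131 and 202 FPKM in the knockdown libraries. It was 3.41-fold higher (log2 fold change 1.77, SE 0.41, limma adjusted p = 0.0219), and without each library in turn it stayed between 1.46 and 2.08 and past the unadjusted rule. The pass with limma's adjusted p was lost without NC replicate 2 (0.118), without knockdown replicate 2 (0.0981), with no filter on low values (0.173) and under median-ratio rescaling (0.0517), and also with the replicate number as a block, in a range of 0.00127 to 0.301 over all alternatives. The untreated 8-cell embryos held 23.2 ± 4.08 FPKM, in tables that were normalized apart. *CENPU* held 59.4 and 59.9 FPKM in the NC and 99.04 and 148 FPKM in the knockdown libraries, a 2.01-fold rise that did not pass with the adjusted p (log2 fold change 1.01, SE 0.40, limma adjusted p = 0.115). It was called without knockdown replicate 1 (1.30) and lost without NC replicate 1 (1.003), NC replicate 2 (1.02) or knockdown replicate 2 (0.72), and under median-ratio rescaling. The ratio of *CENPU* to *CENPP* was 1.25 and 1.18 in the NC and 3.23 and 3.49 in the knockdown libraries, which did not overlap. That of *CENPU* to *CENPO* was 0.566 and 0.754 in the NC and 0.574 and 1.40 in the knockdown libraries, which overlapped.

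*KIF22*, a chromokinesin that pushes chromosome arms, held 28.9 and 28.99 FPKM in the NC and 14.6 and 7.47 FPKM in the knockdown libraries (log2 fold change -1.38, SE 0.44, limma adjusted p = 0.0648). *CENPE* held 34.9 and 52.3 FPKM in the NC and 23.2 and 14.6 FPKM in the knockdown libraries (log2 fold change -1.17, SE 0.43, limma adjusted p = 0.0975), and *SPC25* 38.6 and 36.8 FPKM and 17.2 and 17.4 FPKM (log2 fold change -1.08, SE 0.40, limma adjusted p = 0.102). In all 3 the groups did not overlap, which adds little for genes chosen by the rule, and none passed with the adjusted p. How many of all genes were apart in groups of 2 libraries was not counted. *KIF22* was lost without knockdown replicate 2 (-0.94), *CENPE* without NC replicate 2 (-0.89) or knockdown replicate 2 (-0.85), and *SPC25* without NC replicate 1 (-1.05) or NC replicate 2 (-1.11). With the replicate number as a block *CENPE* and *SPC25* were not called either. *CENPQ* was -1.03 (SE 0.53), with 23.5 and 6.77 FPKM in the NC and 4.55 and 7.27 FPKM in the knockdown libraries, which overlapped, and was called lower without NC replicate 2 (-1.86) or knockdown replicate 2 (-1.31). *KIF2B* was under the filter with all libraries and was called lower without NC replicate 1.

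**Figure D5:**
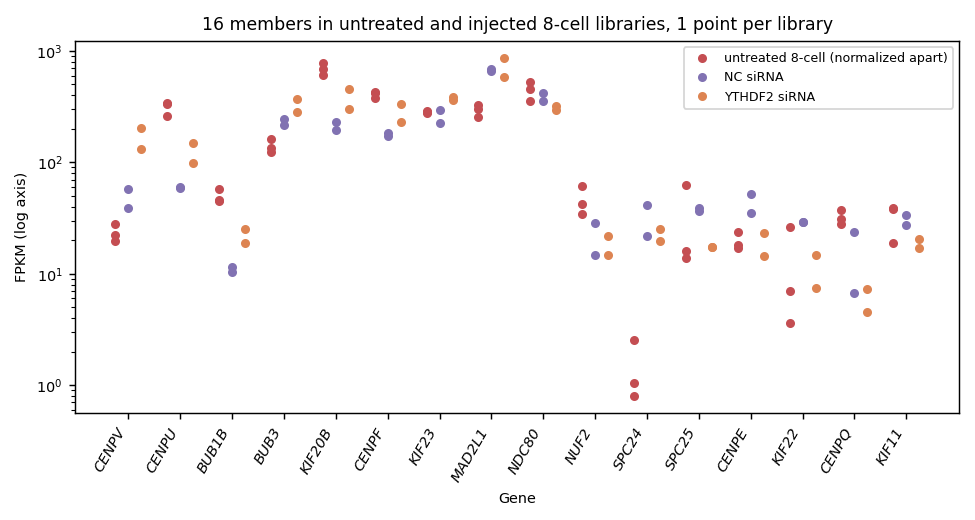
FPKM on a log axis of 16 genes (horizontal axis) in the 3 untreated 8-cell, 2 NC and 2 knockdown libraries, with 1 point per library; the untreated tables were normalized apart from the injected ones. *CENPV* and *CENPU* show both knockdown points above both NC points, and *SPC25*, *CENPE* and *KIF22* both below.

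The remaining subunits gave no call. In the inner centromere *CENPA* was 0.23 (SE 0.42) and *CENPC* 0.45 (SE 0.40). All 4 NDC80 genes had negative values, with *NDC80* at -0.34 (SE 0.36), *NUF2* at -0.18 (SE 0.45) and *SPC24* at -0.41 (SE 0.44), of which *NUF2* and *SPC24* overlapped between the groups and changed sign in 2 and 1 of 11 alternatives. All 4 checkpoint genes tested had positive values, from 0.07 (SE 0.37) for *MAD2L1* and 0.15 (SE 0.46) for *BUB1* to 0.48 (SE 0.37) for *BUB3* and 0.94 (SE 0.42) for *BUB1B*, with changes of sign for *MAD2L1* and *BUB1* in 2 and 4 of 11 alternatives. *BUB1B* held 10.4 and 11.6 FPKM in the NC and 19.04 and 25.1 FPKM in the knockdown libraries, which did not overlap. With all libraries it was short of 2-fold on the log2(FPKM + 1) scale. *MAD1L1* was under the filter, at 0.540 and 0.0600 FPKM in the NC and 0.350 and 0.220 FPKM in the knockdown libraries.

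Among the abundant genes, *KIF20B* held 232 and 195 FPKM in the NC and 304 and 454 FPKM in the knockdown libraries (log2 fold change 0.80, SE 0.38), and *CENPF* 182 and 173 FPKM and 334 and 232 FPKM (log2 fold change 0.64, SE 0.38). Neither overlapped between the groups and neither reached 2-fold with FPKM as deposited, while *KIF20B* was called after quantile normalization. *KIF23* was 0.53 (SE 0.37), *KIF4A* 0.68 (SE 0.41), *KIF18A* 0.22 (SE 0.40) and *KIF5B* 0.74 (SE 0.39). On the negative side *KIF11* was -0.67 (SE 0.41), *KIF2C* -0.59 (SE 0.46), *KIF20A* -0.41 (SE 0.41) and *KIFC1* -0.76 (SE 0.50). None of these 8 passed the rule. *KIF12*, *KIF21B*, *KIF25* and *KIF26A* were listed at 0 in both knockdown libraries, and the last 3 also in both NC libraries.

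Levels in NC and untreated 8-cell embryos are given side by side only, since their tables were normalized apart and their embryos belong to different experiments. The median ratio of NC to untreated means was 0.758 over 51 of the genes with at least 1 FPKM in both, beside 0.828 over 8211 genes. *CENPU* stood at 59.6 ± 0.389 FPKM in NC and 313 ± 45.5 FPKM in untreated 8-cell embryos, *BUB1B* at 10.97 ± 0.849 and 49.4 ± 7.07 FPKM, and *MAD2L1* at 673 ± 25.5 and 293 ± 38.03 FPKM. *SPC24* was 31.5 ± 13.8 FPKM in NC and 1.46 ± 0.947 FPKM in untreated embryos. The ratio of *NDC80* to *SPC24*, free of scaling, was 10.2 and 16.5 in the NC and 14.98 and 12.6 in the knockdown libraries, and 344, 208 and 568 in the untreated 8-cell libraries. Whether the 2 sets of tables used the same gene models is not given in the sources used here.

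Other genes of the same pathways were counted by lists that leave out the genes above. Beside each count stands the share of all genes tested. Of 18 other kinetochore genes 5 rose (27.8%, against 16.7%) and none fell (against 6.06%) at the 4-cell stage, among them *ITGB3BP* (log2 fold change 1.90, SE 0.24), which encodes the CCAN subunit CENPR, and *MIS18A* (log2 fold change 1.33, SE 0.24), which helps to load CENPA. At the 8-cell stage 4 rose (22.2%, against 19.8%) and 2 fell (11.1%, against 8.14%), with *ZWINT*, a scaffold of the outer kinetochore, at 2.44 (SE 0.23), and *NSL1*, of the MIS12 complex that carries NDC80, at -2.95 (SE 0.27). From the 4-cell to the 8-cell stage 1 rose (5.56%, against 4.55%) and 3 fell (16.7%, against 4.28%). In knockdown embryos 1 rose (5.56%, against 9.48%) and 2 fell (11.1%, against 15.3%), of which *MIS12*, of the same complex as NSL1, was at -2.46 (SE 0.47), *OIP5* at -1.61 (SE 0.42) and *SKA1*, which couples NDC80 to microtubules, at 1.34 (SE 0.38).

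Of 18 mitotic kinases and their cofactors 2 rose (11.1%, against 16.7%) and 1 fell (5.56%, against 6.06%) in 4-cell embryos. By the 8-cell stage 3 rose (16.7%, against 19.8%) and 3 fell (16.7%, against 8.14%), and in knockdown embryos 2 rose (11.1%, against 9.48%) and 1 fell (5.56%, against 15.3%). None passed the rule between the 4-cell and 8-cell stages, where *CCNB1*, which encodes cyclin B1, was -0.65 (SE 0.14) with limma adjusted p = 0.0253. *BIRC5*, which encodes survivin of the chromosomal passenger complex, was 1.23 (SE 0.20) at the 4-cell and 1.66 (SE 0.20) at the 8-cell stage, and *SGO2*, a protector of centromeric cohesion, 1.15 (SE 0.17) and 1.17 (SE 0.17). Of the 19 spindle microtubule proteins tested at the stages 4 rose (21.1%, against 16.7%) and none fell (against 6.06%) at the 4-cell stage, and 3 rose (15.8%, against 19.8%) and 1 fell (5.26%, against 8.14%) at the 8-cell stage. None passed the rule between these, where *ASPM*, of the spindle poles, was -0.79 (SE 0.19) with limma adjusted p = 0.0361. *NUSAP1*, which binds spindle microtubules, was 2.18 (SE 0.27) and 2.47 (SE 0.27). In knockdown embryos 2 of 20 rose (10.0%, against 9.48%) and none fell (against 15.3%), and *KIFAP3*, the cargo adaptor of the KIF3A and KIF3B motor, was 1.32 (SE 0.42), not past the adjusted p. The medians of the 3 lists were 0.68, -0.31 and 0.49 at the 4-cell and 0.27, 0.14 and 0.32 at the 8-cell stage, in the order kinetochore, kinases and spindle, beside 0.29 and 0.37 for all genes.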

How the data were processed

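Goat oocytes and embryos were profiled by Smart-seq2. Per the study's methods, HISAT2 placed the reads on the ARS1 assembly, reads with a single location were retained, HTSeq gave counts, and the authors deposited FPKM values per gene. The untreated tables give unrounded FPKM. Whole fragments were recovered from them for 17918 of 17918 genes above 0, 22397878 to 28357544 a library. The tolerance was 0.02 fragments, wider for the largest counts, and a gene above 0 in a single library always passes. Injected values were rounded, so that their depth is unknown and precision is limited by the number of libraries.

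Genes were matched by name. The 9 untreated libraries entered 1 limma (3.58.1, R 4.3.3) fit and the 4 injected another, with log2(FPKM + 1), a mean of at least 1 FPKM (9090 of 18159 shared names, and 11004 of 27121) and a variance trend. A call needed p under 0.05 and over 2-fold, as in the study, with Benjamini-Hochberg adjusted p over all genes tested beside it. All tests were two-sided. Untreated and injected tables were normalized apart and not tested against each other.

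The genes named were those past the rule in a comparison, 21 core kinetochore, checkpoint and motor genes in each comparison, the highest gene of each role, genes listed at 0 throughout a table, and *YTHDF2*. Members and lists were chosen with earlier results of these data known. The steps were tested on simulated data. Alternatives were pseudocount 0.1, no filter, 3 rescalings, adjusted p, replicate block, fits of the compared stages alone, each library left out and voom on fragments.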

Additional observations from a re-analysis of the deposited data

How the results depend on the processing

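The number of genes called higher at the 4-cell stage, 8 with FPKM as deposited, was 4 after median-ratio rescaling, 1 with equal summed FPKM, 3 after quantile normalization and 2 with limma voom on recovered fragments, and 6 to 8 with a library left out. Of all genes 16.7% became 9.14%, 6.78%, 9.53% and 9.01% in that order, and 14.6% to 19.2% with a library left out. The number called lower, 2, was 4 with equal summed FPKM and 4 with voom, and 1 to 2 with a library left out. Of all genes 6.06% lower became 12.7% with equal summed FPKM and 16.3% with voom, and 4.86% to 7.18% with a library left out. The median log2 fold change of 0.24 became 0.088 without the filter on low values, -0.10, -0.25 and -0.025 under the 3 rescalings in that order and -0.29 with voom. Over all genes 0.29 became 0.023 without the filter, -0.0014, -0.13 and 0.039 under the rescalings and -0.18 with voom. At the 8-cell stage the 6 called higher became 3 under each of the 3 rescalings and 3 with voom, and 6 to 8 with a library left out. Of all genes 19.8% became 12.5%, 11.7% and 12.1% under the rescalings and 12.4% with voom, and 18.0% to 22.6% with a library left out. The 2 called lower became 7, 7 and 8 under the rescalings and 8 with voom, and 2 to 4 with a library left out. Of all genes 8.14% lower became 12.7%, 13.2%, 13.4% and 17.4% in that order, and 7.20% to 10.8% with a library left out. The median of 0.17 became -0.16, -0.20, -0.21 and -0.35 in the same order, and that of all genes, 0.37, became 0.062, 0.032, 0.031 and -0.094. Between 4-cell and 8-cell embryos the 0 called higher became 0 to 1 and the 2 called lower 0 to 4 with a library left out, and 1 was called lower with equal summed FPKM. Of all genes 3.11% to 8.97% were higher and 3.86% to 5.25% lower with a library left out, and 3.08% were lower with equal summed FPKM.

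In the knockdown comparison the 2 called higher became 1 after median-ratio rescaling and 1 with the adjusted p in the rule, where the 3 called lower became 0. Of all genes 8.82% were higher after the rescaling, and 2.06% were higher and 5.92% lower with the adjusted p. With a library left out the counts were 1 to 5 higher and 2 to 5 lower. *YTHDF2* kept its call throughout, at -4.61 to -3.89 with a library left out. The cause of these changes was not tested. The voom fit and the crossed block were chosen after seeing the data.

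Whether the replicate numbers pair the samples is not known. Deviations of same-numbered libraries from their group means correlated at -0.51 to 0.20 across stages and at -0.15 between NC and knockdown. These values cannot decide it, because deviations within groups of 2 or 3 libraries mirror one another. With the replicate number as a block, 7 genes were higher and 2 lower in 4-cell embryos against MII oocytes (19.7% and 5.02% of all genes). In 8-cell embryos 7 and 3 were (18.1% and 8.12% of all genes), and in 8-cell against 4-cell embryos 0 and 2 (2.35% and 6.19%). In knockdown embryos 1 was higher and 2 lower (4.37% and 12.9% of all genes), and the median became -0.11, beside -0.17 for all genes. With the numbers of that comparison crossed in the block, 1 was higher and 1 lower (3.34% and 9.04% of all genes). The median was then -0.094, beside -0.011 for all genes. With the labels' numbers as the block *CENPV* was the knockdown gene called higher (limma adjusted p = 0.201), and *KIF22* and *KIFC1* were those called lower, so that *CENPU*, *CENPE* and *SPC25* lost their calls. None of the called knockdown genes passed the adjusted p there. At the stages the block cost *KIF11* (1.05) and *KIF16B* (0.96) their 4-cell calls and *BUB3* (0.98) its 8-cell call, and *SPC25* at the 8-cell stage kept its unadjusted call with the block (limma adjusted p = 0.109).

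A smaller pseudocount of 0.1 and a fit of the compared stages alone kept every one of these counts within 1.5 times. Over all fits of a single called gene under an alternative, 287 kept the call, 73 lost it and none changed sign. Injected libraries of unknown depth and groups of 2 or 3 limit all calls. The spread of a lone library left in a group was assumed to equal that of the other group.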
